A study of Mus musculus with 6 samples.

Results

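The Fos, Jun and ATF genes of the transcription factor AP-1, together with the immediate early genes Egr1 and Ier3, were followed in primary mouse hepatocytes given the inflammatory cytokine TNF. The 10 genes were Jun, Junb, Jund, Fos, Fosb, Fosl1, Fosl2, Atf3, Egr1 and Ier3. They were listed by symbol, with earlier results of these data known. All 10 were among the 19764 genes of the deposited table and all 10 passed the filter on low reads. The cells came from mice of strain Bl6/N, and 400000 were plated per well on collagen. They were held for 6 h in a maintenance medium with 0.1 µM corticosterone and next starved for 16 h at 5 mM glucose. Both groups then received 1 µM corticosterone, a glucocorticoid receptor ligand, and 10 µM WY-14643, a PPARα ligand, for 8 h. The 3 TNF libraries came from cells that also had 1 ng/ml TNF, and the 3 Control libraries from cells that had vehicle. Cells without the ligands and other times are not analysed here. The labels used here give no age for the mice and do not tie the replicates to different animals or cultures. The p-values therefore measure the spread between these libraries, or between the differences of libraries sharing a number, which may be technical.

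AP-1 is a dimer of basic leucine zipper (bZIP) proteins. Jun proteins pair with each other, with Fos proteins or with ATF proteins, and the choice of partner sets which DNA sites are bound and how strongly they are activated. Many of these genes are immediate early genes, whose transcription can be switched on within minutes of a stimulus without new protein synthesis. In liver they are known for their response to cell isolation, partial hepatectomy, growth factors and inflammatory cytokines, and TNF reaches them through the JNK, p38 and NF-κB pathways. The glucocorticoid receptor, whose ligand both groups received, is known to interfere with AP-1.

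Levels are in CPM (reads scaled to a common library size), with the SD over the 3 libraries of a group. Changes are TNF minus Control in log2(CPM + 1), where the change of a low gene comes out too small. Library totals lay between 17612060 and 25114289 reads, so that 3 reads, the limit that a count of 0 allows, corresponded to 0.124 to 0.166 CPM (counting error only). Control and TNF libraries of the same number deviated together from their group means. Each change was therefore tested with limma both with a replicate block (blocked) and without one (unpaired). The unpaired fit had been planned as the main one and the block as an alternative. "Rose" and "fell" are kept for genes whose blocked adjusted p was under 0.05. The cells carried hepatocyte markers, led by Alb at a mean of 34115 CPM. Summed over 9 markers these ranged from 30954 to 50548 CPM in Control and from 29521 to 45659 CPM in TNF, and 5 of the 9 fell (Ttr, Apoa1, Cps1, Hnf4a and F2). Over all genes tested 11.2% fell, and unpaired 0 of the 9 markers passed (limma). The part of the fall of the 5 markers in the changes described here was not tested.

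Junb, Fosl1, Egr1 and Ier3 rose by 1.64-fold to 1.71-fold in mean CPM, Atf3 rose slightly, Jund fell slightly, and Jun, Fos, Fosb and Fosl2 did not pass the test. In the blocked limma fit 5 of 10 genes rose and 1 fell. Over all 12293 genes tested, 9.40% rose and 11.2% fell, 20.6% in all. In the unpaired limma fit 0 of the 10 passed, against 0.358% of all genes higher and 0.0732% lower (0.431% in all), and limma-voom on the recovered reads also called 0 of the 10, against 0.374%. At an unadjusted p under 0.05 the unpaired limma fit had 4 of the 10, namely Junb, Egr1, Fosl1 and Ier3, against 8.75% of all genes. The blocked limma fit had 7 at that unadjusted p, against 31.7%. The median change of the 10 genes was 0.12, against -0.0125 for all genes tested. TNF was above Control in each of the 3 pairs for 5 genes (23.4% of all genes) and below in each pair for 2, Jund and Fos (27.7%).

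**Figure D1:**
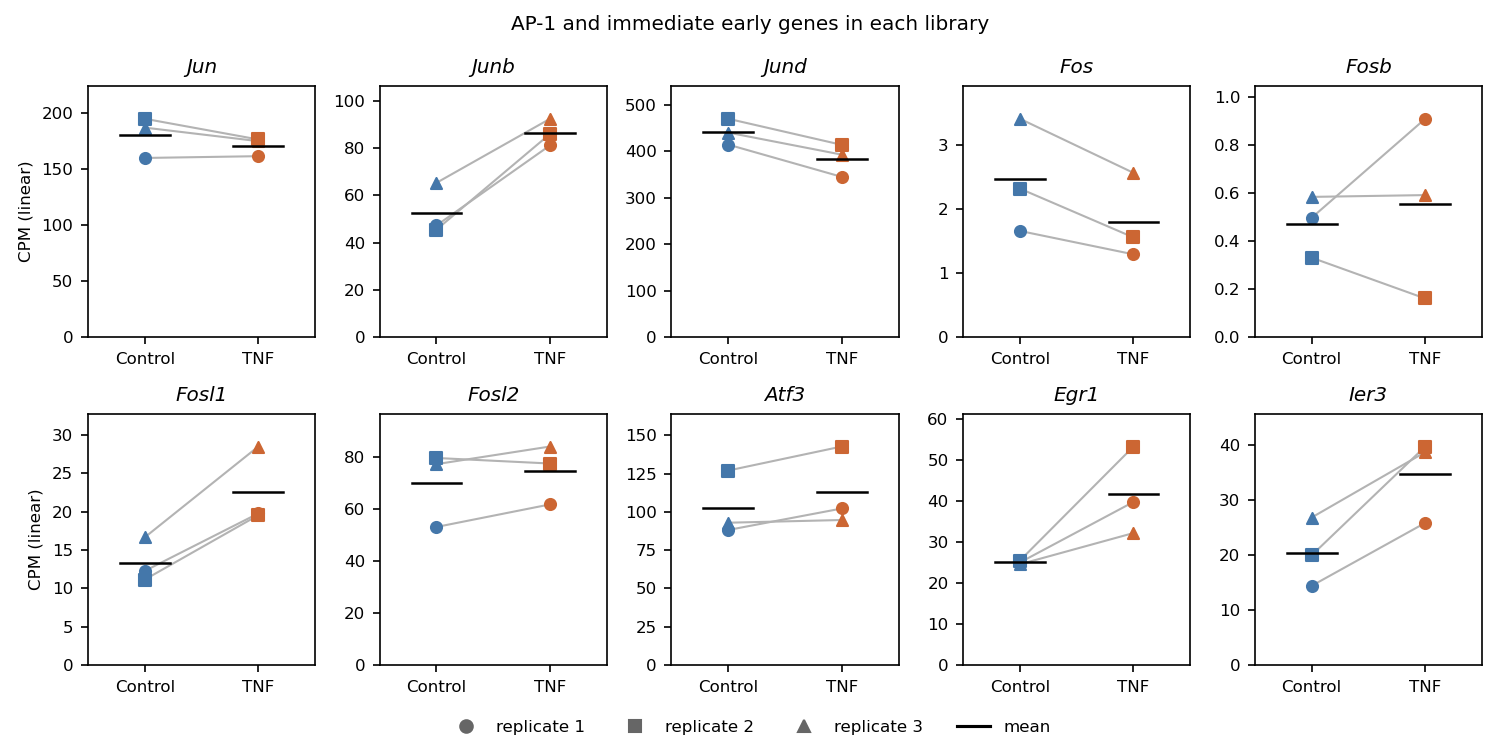
CPM (linear axes from 0) of each of the 10 genes in the 3 Control and 3 TNF libraries, with grey lines joining libraries of the same replicate number and black bars marking group means. Junb, Fosl1 and Egr1 are higher in every TNF library than in any Control library. Jun, Fos, Fosb, Fosl2, Atf3 and Ier3 overlap between the groups.

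Among the Jun subunits, Junb rose while Jund fell. Junb, a Jun protein that activates transcription less strongly than c-Jun on many promoters, was at 47.3, 45.5 and 65.3 CPM in Control 1, 2 and 3. It was at 81.2, 86.0 and 92.4 CPM in TNF 1, 2 and 3. Every TNF library lay above every Control library, which was the case for 6.59% of all genes tested. The mean went from 52.7 ± 10.96 to 86.5 ± 5.64 CPM (SD, n = 3 each). The log2 change was 0.72 (SE 0.062 blocked, 0.139 unpaired), with an adjusted p of 1.39e-06 blocked and 0.0998 unpaired in limma. By pair it was 0.77, 0.90 and 0.49. With a prior variance that did not depend on expression, the blocked adjusted p of Junb was 0.0275 (limma). Control 3 was the highest Control library, and without it the unpaired change was 0.883 with an adjusted p of 0.0451 in limma.

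Jund, the Jun subunit that many resting cells express constantly, fell from 442 ± 27.9 to 384 ± 35.4 CPM. Its libraries stood at 415, 470.5 and 441 CPM in Control and at 345, 414 and 393 CPM in TNF. The lowest Control library (414.8 CPM) and the highest TNF library (414.3 CPM) were almost level, so that the lack of overlap, seen downward in 6.66% of all genes, was narrow. The log2 change was -0.20 (SE 0.032 blocked, 0.093 unpaired), and -0.26, -0.18 and -0.16 by pair. Limma gave an adjusted p of 0.000387 blocked and 0.62 unpaired. With a prior variance that did not depend on expression, the blocked adjusted p was 0.0738 (limma).

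Jun itself, which encodes c-Jun, the main target of JNK, was at 160, 195 and 187 CPM in Control and at 162, 177 and 175 CPM in TNF. The groups overlapped, and the TNF libraries lay within the Control range. The blocked 95% interval of the log2 change ran from -0.154 to 0.004, with an adjusted p of 0.181 (limma). An increase of the size seen for Junb is outside that interval.

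The sequence before the start sites of Junb and Jun is shown because these Jun subunits differed in their change. Both are from RefSeq (GRCm38.p6, the assembly also called mm10), 5′ to 3′ on the gene's own strand, from 250 to 31 bases before the start site. Junb lies at chr8:84978779-84978998 on the minus strand and Jun at chr4:95052253-95052472 on the minus strand. Capitals mark the match to TGACNTCA, the known Jun-type form of the AP-1 site in the Jun promoter.
Junb: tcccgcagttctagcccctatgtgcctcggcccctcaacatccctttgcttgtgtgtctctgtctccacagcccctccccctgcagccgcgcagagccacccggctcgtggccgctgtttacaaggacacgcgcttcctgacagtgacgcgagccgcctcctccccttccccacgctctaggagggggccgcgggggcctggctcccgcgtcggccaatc
Jun: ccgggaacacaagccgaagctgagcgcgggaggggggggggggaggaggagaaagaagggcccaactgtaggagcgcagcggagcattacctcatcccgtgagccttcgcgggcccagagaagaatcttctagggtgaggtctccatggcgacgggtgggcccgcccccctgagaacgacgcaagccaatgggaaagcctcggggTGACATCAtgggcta
The Jun match, TGACATCA, begins at -45 from the start site. TGACNTCA occurred on either strand in 8.83% of 32851 promoter windows, which run from 250 bases before to 50 after a start, and among the windows of 8 members only in that of Jun. TGANTCA (7.81% of windows), TGACGTCA (1.79%, itself a form of TGACNTCA), a stricter κB-type motif (0.411%, overlapping the NF-κB consensus given with Ier3) and the CArG box (1.63%) were in none of the 8. The letters describe these windows alone. No window was found for 2 members, Fosl1 among them, and these were not searched.

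Fosl1 was the Fos family gene that rose. It encodes Fra-1, which lacks the strong activation domain of c-Fos and is known as a target of AP-1 itself. Fosl1 was at 12.3, 11.1 and 16.6 CPM in Control and at 19.8, 19.5 and 28.5 CPM in TNF. All TNF libraries were above all Control libraries. Its 3 pairs changed by 0.65, 0.76 and 0.74, the closest agreement among the 4 genes with the largest rises (SD 0.0604). The log2 change was 0.72 (SE 0.075 blocked, 0.195 unpaired), and limma gave an adjusted p of 9.75e-06 blocked and 0.262 unpaired. With a prior variance free of expression the blocked adjusted p was 0.0106 (limma). Fosl1 was the only gene of the 10 counted over less than its gene length, at 5465 of 8241 bases. In GENCODE M21 it overlaps Ccdc85b, a gene on the other strand that is also in the deposited table, by 2759 bases. The uncounted part of Fosl1 is about as long as that overlap. Whether the uncounted bases are the overlapping ones was not tested, and the strand setting of the counting is not known.

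Fosl2, which encodes the related Fra-2, was at 53.1, 79.7 and 77.3 CPM in Control and 61.8, 77.6 and 84.1 CPM in TNF. The groups overlapped, with library 1 of each group the lowest. The blocked 95% interval was -0.007 to 0.204 and the adjusted p was 0.188 (limma). Without replicate 2 the adjusted p was 0.0439, at a log2 change of 0.167.

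Fos and Fosb, the classical rapid responders of the family, were near the bottom of the measured range after 8 h. Control 1, 2 and 3 held 30, 56 and 70 reads of Fos, and TNF 1, 2 and 3 held 27, 29 and 52, or 2.46 ± 0.884 and 1.80 ± 0.671 CPM. It was lower in each pair, by -0.21, -0.38 and -0.31, although the groups overlapped. The adjusted p for Fos was 0.121 blocked and 0.926 unpaired (limma). With a prior variance free of expression it was 0.0467 blocked. Reads of Fosb numbered 9, 8 and 12 in the Control libraries, against 19, 3 and 12 with TNF. At that depth no difference was detectable, and the blocked interval of the log2 change ran from -0.279 to 0.386.

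**Figure D2:**
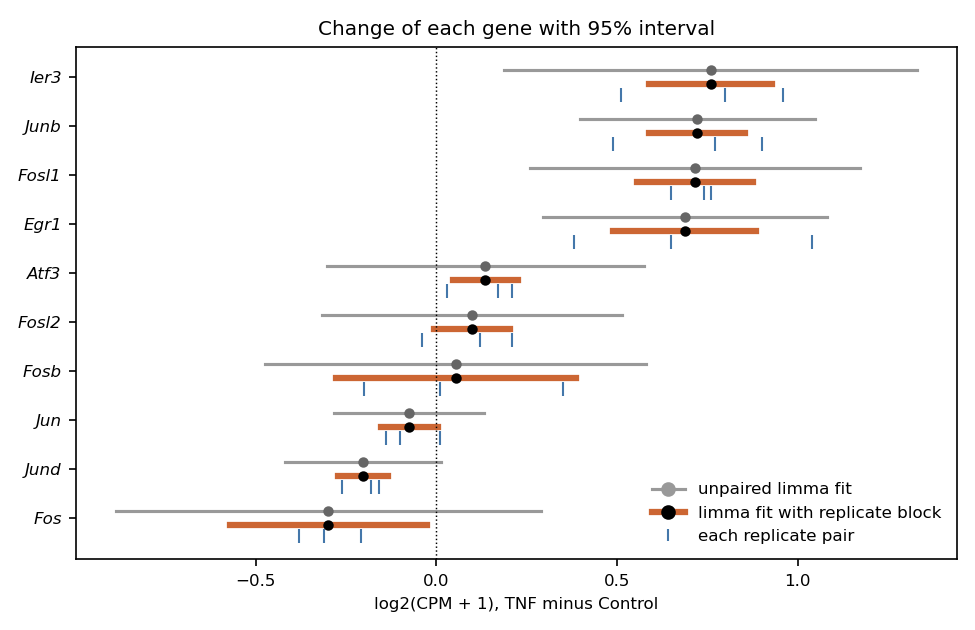
Change of each gene on the log2(CPM + 1) scale, TNF minus Control, with the 95% interval of the unpaired limma fit (grey) and of the blocked limma fit (orange), and blue ticks for each of the 3 replicate pairs. Ier3, Junb, Fosl1 and Egr1 group between 0.69 and 0.76, apart from the other 6 genes, which lie between -0.30 and 0.14.

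Per counted kilobase, Jund was the most abundant of the 10 genes and Fosb the least. Control levels were 154 ± 9.68 CPM per kilobase for Jund, 56.7 ± 5.75 for Jun, 28.6 ± 5.96 for Junb and 17.0 ± 5.20 for Ier3. Lower in the order came Atf3 (7.88 ± 1.62 CPM per kilobase), Egr1 (6.66 ± 0.122), Fosl2 (3.28 ± 0.688) and Fosl1 (2.44 ± 0.533). Fos was at 0.730 ± 0.262 and Fosb at 0.0640 ± 0.0175 CPM per kilobase. Atf3 and Egr1, and likewise Fosl2 and Fosl1, were neighbours that differed by less than the sum of their SDs. In TNF the order was the same except that Egr1 (11.1 ± 2.85) stood above Atf3 (8.68 ± 1.98), and Fosl1 (4.13 ± 0.934) above Fosl2 (3.49 ± 0.537); the members of each of these pairs again lay within the sum of their SDs. Junb was at 47.0 ± 3.07 CPM per kilobase in TNF, against 53.7 ± 2.58 for Jun.

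These levels depend on the length used, since the deposited counted lengths hold bases outside the exons of GENCODE M21. Apart from Fosl1, the counted length of each gene equalled its full deposited gene length, so that any introns were part of it. Those exons made up 100% of the counted length of Jun and 98.3% of that of Junb, but 58.0% for Jund, 27.4% for Fosl2 and 15.2% for Atf3. The counted length of Jund, a single-exon gene, was 2878 bases against 1668 exon bases, and its level per kilobase differs accordingly. Divided by exon bases instead, Atf3 reached 52.0 CPM per kilobase in Control and stood below Jund (265) and Jun (56.7) only. In TNF the order of Atf3 and Egr1 was then the reverse of that per counted kilobase, with Atf3 at 57.3 and Egr1 at 13.6 CPM per kilobase of exon. Antisense genes overlap Jun (Junos, 689 bases) and Jund (Gm11175, 919 bases), and without strand their reads cannot be told apart from those of Jun and Jund.

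As a share of the 7 Jun and Fos genes summed per counted kilobase, Junb made up 11.4%, 9.67% and 13.9% in Control 1, 2 and 3. In TNF 1, 2 and 3 it made up 19.9%, 18.4% and 19.95%. Jund went from 62.6% ± 2.25 to 55.03% ± 1.47 of the sum, while Jun was at 23.1% ± 0.813 and 22.2% ± 0.5998. By exon bases the shares were 7.83% and 13.4% for Junb and 71.3% and 64.2% for Jund in Control and TNF. The summed level was 245 ± 17.4 CPM per kilobase in Control and 242 ± 17.9 in TNF. Junb over Jund, a ratio free of library scaling and computed after their values were seen, was 0.178, 0.151 and 0.232 in Control and 0.368, 0.325 and 0.368 in TNF.

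**Figure D3:**
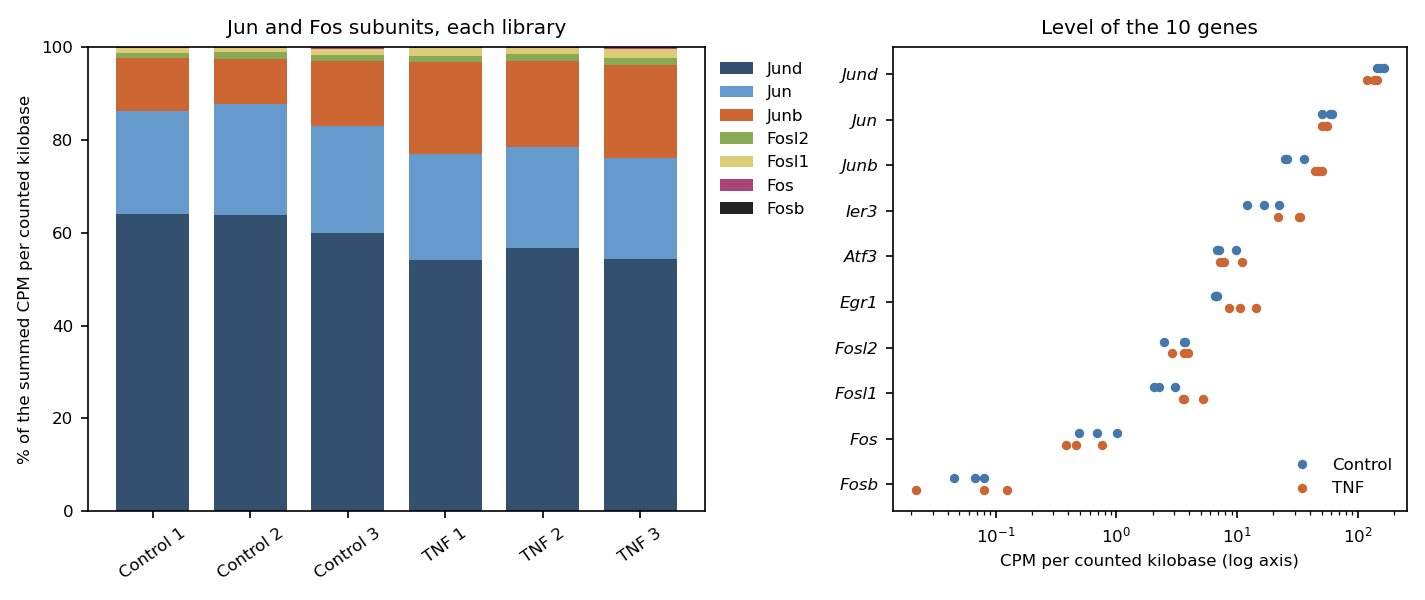
Left, share of each Jun and Fos gene in the summed CPM per counted kilobase of the 7 genes, as stacked bars from 0 to 100% for each library; right, CPM per counted kilobase of the 10 genes in each library on a log axis. Junb takes 18.4% to 19.95% of the sum in the TNF libraries and 9.67% to 13.9% in Control.

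Atf3, a stress-induced bZIP protein that pairs with Jun proteins and is mostly known as a repressor, rose by 0.14 on the log2 scale in the blocked fit. It was at 88.2, 127 and 92.9 CPM in Control and at 102, 143 and 94.7 CPM in TNF. The groups overlapped broadly, and replicate 2 was the highest in both. Limma gave an adjusted p of 0.0329 blocked and 0.987 unpaired. The call was lost without replicate 1 (adjusted p 0.184) or replicate 2 (0.153) in limma with the block, without a filter (0.0982), and with a prior variance free of expression (0.21).

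Egr1, a zinc finger factor of the growth factor and serum response, was nearly constant in Control at 25.0, 25.4 and 24.5 CPM. In TNF it was at 39.7, 53.2 and 32.1 CPM. All TNF libraries were higher, but by unequal amounts. The changes by pair were 0.65, 1.04 and 0.38, with an SD of 0.332. The log2 change was 0.69 (SE 0.092 blocked, 0.168 unpaired), with an adjusted p of 9.06e-05 blocked and 0.203 unpaired in limma. The blocked adjusted p was 0.0559 with a prior variance free of expression.

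Ier3, which encodes a small protein that modulates survival during NF-κB signalling, had the largest change of the 10. It was at 14.4, 19.98 and 26.9 CPM in Control and 25.9, 39.8 and 38.8 CPM in TNF. TNF 1 was below Control 3, so the groups overlapped, while within pairs TNF was higher by 0.80, 0.96 and 0.51. The mean went from 20.4 ± 6.24 to 34.8 ± 7.76 CPM, a log2 change of 0.76 (SE 0.079 blocked, 0.244 unpaired). Limma gave an adjusted p of 9.35e-06 blocked and 0.38 unpaired, and of 0.0277 blocked with a prior variance free of expression.

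The sequence before the Ier3 start is shown because this gene changed most, by a narrow margin, and is a known NF-κB target. It is from RefSeq, 5′ to 3′, on the plus strand at chr17:35821463-35821682 (GRCm38.p6), from 250 to 31 bases before the start site. Capitals mark the match to the NF-κB consensus.
Ier3: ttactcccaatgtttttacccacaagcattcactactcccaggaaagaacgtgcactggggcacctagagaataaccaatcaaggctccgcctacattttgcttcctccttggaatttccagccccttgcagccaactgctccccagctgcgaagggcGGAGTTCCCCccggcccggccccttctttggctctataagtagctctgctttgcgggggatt
The match begins at -92 and reads GGGGAACTCC on the other strand. The NF-κB consensus was in 4.51% of the 32851 windows. Among the 8 windows it was also in those of Fosl2, Fosb and Fos, which did not pass the test, and not in that of Junb, which rose. This motif and TGACNTCA were added after the first 4 motifs had given no match.

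In the authors' deposited table the same 6 genes of the 10 had an adjusted p under 0.05, against 15.2% of its 19764 genes (2999). That share includes the 7471 genes with too few reads to be tested here. The log2 changes were 0.78 for Ier3, 0.76 for Fosl1, 0.73 for Junb and 0.71 for Egr1. The authors' deposited table gave 0.14 for Atf3 at an adjusted p of 0.0485 and -0.20 for Jund. For Fos the authors' deposited table gave -0.45 with an adjusted p of 0.0857.

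Of 13 tested partners of 16 listed, 3 rose and 1 fell in the blocked fit (23.1% and 7.69%, against 9.40% and 11.2% of all genes tested). Unpaired, 0 passed by limma or limma-voom, nor did any have an unadjusted unpaired p under 0.05 in limma (0 of 13). The small Maf protein gene Maff, whose product lacks an activation domain, rose from 80.6 ± 21.8 to 108 ± 23.1 CPM (log2 0.43), and by 0.55, 0.38 and 0.37 in the pairs. Its blocked adjusted p was 6.63e-06 in limma. The list median was 0.06. Atf4 and Mafg rose by 0.14 and 0.19, and Atf5, the most abundant of the list at 643 ± 99.5 CPM in Control, fell by 0.12. Batf, Batf2 and Batf3, partners known from immune cells, had too few reads to be tested.

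Of 34 other immediate early genes 28 were tested, and 9 rose and 4 fell. The shares were 32.1% and 14.3%, against 9.40% and 11.2% of all genes tested. In the unpaired limma fit 4 of the 28 had an unadjusted p under 0.05, against 8.75% of all genes. The list median was 0.04. Cyr61, a secreted matricellular protein gene and target of serum response factor and YAP, rose from 186 ± 19.0 to 372 ± 82.1 CPM (log2 0.98). It was at 182, 207 and 170 CPM in Control and 360, 460 and 297 CPM in TNF, with no overlap. Its adjusted p in limma was 6.44e-09 blocked and 0.0641 unpaired. Plk2, a stress-responsive kinase gene, rose from 104 ± 37.2 to 182 ± 69.8 CPM (log2 0.79). Plk2 was higher in each pair by 0.74 to 0.84, although its replicates differed widely.

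The antiproliferative gene Btg1 rose from 67.5 ± 7.58 to 104 ± 0.469 CPM (log2 0.63) and was the one gene of these lists to pass the unpaired limma fit, with an adjusted p of 0.039. That call was lost without any one of Control 1, Control 3 or the 3 TNF libraries. Klf10, a TGF-β-inducible zinc finger gene, rose by 0.42. Errfi1, which encodes the EGF receptor inhibitor Mig-6, fell from 972 ± 180 to 706 ± 140 CPM (log2 -0.46) and by 0.47, 0.44 and 0.48 in the pairs. Ctgf, a close relative of Cyr61, went the other way and fell by 0.24. Myc was at 215 CPM in Control and 227 in TNF (adjusted p 0.0916 blocked, limma), and Egr2, Egr3, Egr4, Nr4a3, Ier5l and Arc had too few reads to be tested.

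The MAPK cascades lead to the phosphorylation and activation of AP-1. Of 25 listed genes of these cascades 24 were tested, and 3 rose and 2 fell (12.5% and 8.33%). Both shares were near those of all genes tested (9.40% and 11.2%). The list holds kinases apart from Mapk8ip1 and Mapk8ip3, which encode JIP scaffold proteins. The list median was 0.03, and 0 passed unpaired by limma or limma-voom. In limma 2 had an unadjusted unpaired p under 0.05, against 8.75% of all genes. The largest change was that of Mapk11, which encodes the kinase p38β and rose from 1.45 ± 0.180 to 4.02 ± 0.763 CPM (log2 1.03). The libraries did not overlap, at 1.55, 1.24 and 1.56 CPM in Control and 4.26, 3.17 and 4.63 CPM in TNF. Mapk14, encoding p38α, fell by 0.19, and Mapk9, encoding JNK2, rose by 0.22. Mapk8, encoding JNK1, was at 29.6 and 30.5 CPM (blocked adjusted p 0.665, limma). Map2k2, encoding MEK2, had the highest CPM of the list, at 207 ± 13.7 in Control, with a log2 change of -0.05 (blocked adjusted p 0.361, limma).

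None of 8 tested MAPK phosphatases passed, by limma blocked or unpaired or by limma-voom, and 0 had an unadjusted p under 0.05 in either limma fit. Dusp1, a direct glucocorticoid target that switches MAPKs off, was at 170 CPM in Control and 165 in TNF, with a blocked interval of -0.14 to 0.04. Dusp16, encoding a JNK phosphatase, had the highest CPM of the list, at 373 and 388 (blocked adjusted p 0.36, limma). Among 9 activators such as Srf, Elk1 and Crebbp, Elk4 and Mkl2 fell by 0.14 and 0.11, and none rose. The share that fell was 22.2%, against 11.2% of all genes tested, and 0 of the 9 passed unpaired by limma or limma-voom. The list medians were -0.01 and 0.00.

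Of 20 AP-1 target genes 14 were tested, and 4 rose and 1 fell, with a median of 0.17. The shares were 28.6% and 7.14%, against 9.40% and 11.2% of all genes tested. Unpaired, 0 passed by limma or limma-voom, and 4 had an unadjusted p under 0.05 in limma, against 8.75% of all genes. The hyaluronan receptor gene Cd44 rose from 14.2 ± 5.73 to 26.7 ± 6.89 CPM (log2 0.91), and by 0.80, 1.21 and 0.72 in the pairs. Hmox1, which encodes haem oxygenase, rose by 0.54, and Plaur, the urokinase receptor gene, from 57.6 ± 6.02 to 78.8 ± 4.201 CPM (log2 0.45). Vim, an intermediate filament gene of mesenchymal cells, fell by 0.39. The metalloproteinase genes Mmp3, Mmp9 and Mmp13 had too few reads to be tested.

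**Figure D4:**
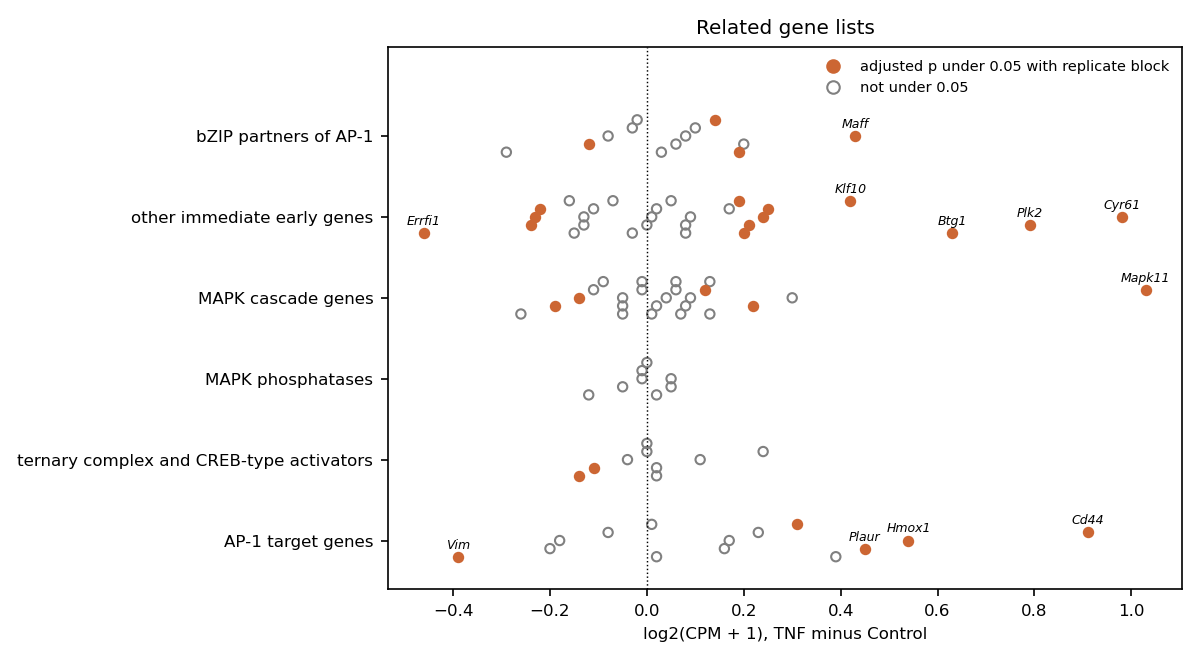
Change of each tested gene of the 6 related lists on the log2(CPM + 1) scale, TNF minus Control; filled points passed an adjusted p of 0.05 in the blocked limma fit and open points did not. Genes that passed with the largest changes are labelled; Mapk11, Cyr61, Cd44 and Plk2 lie farthest to the right, and the MAPK phosphatases stay within 0.12 of 0.

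Cd44, Plaur, Vim and the immediate early genes are also expressed by other liver cells, whose markers were low and overlapped in summed level between the groups. Summed levels ranged in Control and TNF from 144 to 232 and 147 to 234 CPM for 10 macrophage markers, and from 88.3 to 166 and 83.0 to 158 CPM for 10 endothelial markers. They ranged from 19.4 to 69.1 and 20.7 to 47.3 CPM for 9 stellate markers, and from 52.9 to 62.9 and 56.1 to 76.5 CPM for 10 cholangiocyte markers. The 10 lymphocyte and neutrophil markers summed to at most 0.718 CPM, and Cd3g, Nkg7, Gzmb and Ly6g had 0 reads. The Kupffer cell markers Clec4f, Marco, Vsig4 and Timd4 had at most 3 reads in any library, and Cd68 made up most of the macrophage sum. Sox9 rose, and Stab2, Reln and Pkhd1 fell; no other tested marker of these cells passed. The part of such cells in the changes above was not tested, and in bulk RNA fewer cells of a type and less RNA per cell cannot be told apart.

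Junb had the lowest unpaired p of the 10 genes. The 3 genes whose pattern over the 6 libraries lay closest to it, among 9807 genes with a mean of at least 5 CPM, were Pde4b, H2-Q4 and Cep85. Their root mean square distances from Junb in centred log2(CPM + 1) were 0.107, 0.113 and 0.116, against a median of 0.428 over all these genes. Pde4b, a cAMP phosphodiesterase gene, went from 12.1 ± 1.45 to 19.2 ± 1.91 CPM. The MHC class I gene H2-Q4, which has close paralogs that may share reads, went from 59.6 ± 8.56 to 103 ± 15.8 CPM. Cep85, a centrosomal protein gene, went from 401 ± 51.6 to 588 ± 65.3 CPM. With 12293 genes tested and 6 libraries, such closeness is a description only.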

How the data were processed

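PolyA RNA of 3 Control and 3 TNF hepatocyte libraries, made from 500 ng of total RNA, was sequenced in pairs. Reads were aligned with STAR 2.6.1a to mm10, per the submitters' processing notes. Which counter, annotation and strand setting followed is not stated in the sources used here. The deposited values were log2 CPM, to which the authors had added a small prior. Their floor of -3.35 was subtracted on the linear scale, which made 100.0% of 118584 values whole reads within a relative tolerance of 1e-06. The authors' scaling was kept (0.963 to 1.03 of the library totals). The authors' deposited table gives each gene a p-value and its adjusted form, a score from a likelihood ratio test and a log2 fold change.

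A gene was tested if at least 3 libraries had 10 of its reads (after scaling to the median depth) and all libraries together had 15, which left 12293. Limma 3.58.1 in R 4.3.3 was applied to log2(CPM + 1), the prior variance following a trend, with two-sided tests and Benjamini-Hochberg adjustment over all genes tested at 0.05. The script was tested on simulated data. As the deposited unit was log2, the count tests planned for raw counts were not run.

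Deviations from the group means correlated at 0.78, 0.79 and 0.79 where libraries shared a number, and ranged from -0.47 to -0.34 otherwise. The numbers in the titles were therefore taken to pair the samples; no label names a shared day or animal. Recovered reads of replicates of a group differed by more than sampling noise, with a chi-square of 23.4 to 41.7 per degree of freedom.

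The members, lists and alternatives were chosen with earlier results of these data known. Of each related list the genes named are those past the blocked threshold with a change of at least 0.3, up to 8, and the most abundant; 1 such gene is not reported here, and other names were chosen after their values were seen. Exon lengths came from GENCODE M21 and promoter windows from RefSeq GRCm38.p6, found for 8 of 10 members. Alternatives covered scaling, filter, pseudocount (0.1, 0.5), the deposited log2 values, limma-voom, the prior variance, the block and each library left out.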

Additional observations from a re-analysis of the deposited data

How the results depend on the processing

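The unpaired fit called 53 genes. It called 31 without a filter, 27 with a prior variance free of expression, 9 to 30 with 1 library left out and 2530 with the replicate block. With the block and a prior variance free of expression 943 were called. No member passed unpaired; with the replicate block 6 did. Leaving out a library gave 0 to 1, the 1 being Junb without Control 3. Related genes called were 1 unpaired, 2 with scaling by totals or upper quartile, 0 without a filter or with a prior variance free of expression, 0 to 1 with a library left out, and 29 with the replicate block. With the block and a prior variance free of expression 12 related genes were called. Limma-voom also called 1. With 1 library left out, the unpaired change ran from -0.11 to 0.249 for Fosb (reversed without Control 2, at -0.017, and TNF 1), from -0.086 to 0.226 for Fosl2 (reversed without Control 1) and from -0.042 to 0.297 for Atf3 (reversed without TNF 2). The cause was not tested.

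With the block, Junb, Fosl1 and Ier3 passed in all 11 alternatives, Egr1 and Jund in 10 and Atf3 in 7. The number of members passing was 4 to 6, and without replicate 2 Fosl2 took the place of Atf3. Scaling moved the median of all genes by under 0.1. The block with totals, upper quartile, deposited values or a prior variance free of expression was added after seeing the data. Depth limits Fos and Fosb, at 3 to 70 reads per library.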
